A study of Mus musculus with 27 samples.

Results

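RNA-seq of mouse embryonic fibroblasts (MEFs) was used to describe 10 cell surface receptor genes in wild type and *Firre* KO cells. *Pdgfra*, *Pdgfrb*, *Fgfr1*, *Fgfr2*, *Egfr*, *Met*, *Axl*, *Ddr1* and *Ddr2* encode receptor tyrosine kinases, and *Ngfr* encodes the neurotrophin receptor p75, which has no kinase domain. The genes were chosen by symbol, with no measured value in the rule, although earlier results of these data were known. Of the 37310 gene rows in the count table, 11 carry 1 of these symbols, because *Fgfr1* has a second row (ENSMUSG00000091895.1) that reached 2.83 counts in male KO replicate 1 and was listed at 0 in the other libraries. That second row did not pass the filter on low counts, and the 10 main rows are among the 15387 genes tested.

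*Firre* is an X-linked long noncoding RNA, and the KO mouse carries a deletion of the locus made by recombination between loxP sites. The libraries form 4 groups of 3 replicates, namely female WT, female Firre KO, male WT and male Firre KO. All 4 groups are untreated primary cultures of mid-gestation mouse embryos from which the head, limbs and inner organs had been removed. Cultures of individual embryos were kept as frozen stocks, and which embryo each replicate came from is not given in the sources used here, so p-values measure the spread between these samples, which may be technical.

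Receptor tyrosine kinases bind a growth factor or a matrix protein outside the cell, pair up, and phosphorylate each other and signalling proteins inside it. In fibroblasts they carry the signals of platelet-derived growth factors (*Pdgfra* and *Pdgfrb*), fibroblast growth factors (*Fgfr1* and *Fgfr2*), ligands of the epidermal growth factor family (*Egfr*), hepatocyte growth factor (*Met*), Gas6 (*Axl*) and fibrillar collagen (*Ddr1* and *Ddr2*). *Ngfr* binds neurotrophins and is a classical surface marker of neural crest and Schwann cells.

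The libraries held 42986516 to 65454660 expected counts, and every male library was deeper than every female library. *Firre*, annotated as 6720401G13Rik, had 90 to 129 counts in female wild type, 239 to 307 in male wild type and 0 in all 6 KO libraries. *Xist* was at 17445 counts or more in the female libraries and at 4 or fewer in the male libraries, and each of 4 Y-linked genes had at most 1 count in a female library and at least 1305 in a male library. The third replicates of both male groups stood apart. A chi-square per degree of freedom between 2 replicates, in which 1 is counting noise, lay between 35.2 and 41.8 for pairs with a male replicate 3 and between 7.11 and 15.5 for the other pairs, so results that rest on these 2 libraries are given with and without them. Of 10 fibroblast markers all 10 passed the filter, and they summed to 9855 to 13470 CPM (counts scaled to the TMM-adjusted library size and to 1000000) in a library. Their group means ran from 0.486 to 5708 CPM, so the most abundant of them carried the sum.

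The start regions of 3 members are shown first, because these genes mark the ends of the range, with *Axl* as the most abundant receptor and *Ngfr* and *Pdgfra* as the least abundant and most variable. They are bases directly before the transcription start from RefSeq's promoter table (GRCm38.p6), that of *Ngfr* cut to stay before both annotated starts, and each matched exactly in the build of the count table (NCBIM37, mm9). They lie at chr7:26573753-26574002 on the minus strand for *Axl*, chr5:75548026-75548275 on the plus strand for *Pdgfra* and chr11:95449050-95449262 on the minus strand for *Ngfr*. Capitals mark GC boxes, searched as GGGCGG on both strands, the element that Sp1-type factors are known to bind.
Axl: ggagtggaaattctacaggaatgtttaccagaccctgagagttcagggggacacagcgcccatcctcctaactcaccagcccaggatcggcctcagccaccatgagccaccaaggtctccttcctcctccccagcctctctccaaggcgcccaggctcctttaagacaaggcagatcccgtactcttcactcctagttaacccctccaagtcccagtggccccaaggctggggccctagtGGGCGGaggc
Pdgfra: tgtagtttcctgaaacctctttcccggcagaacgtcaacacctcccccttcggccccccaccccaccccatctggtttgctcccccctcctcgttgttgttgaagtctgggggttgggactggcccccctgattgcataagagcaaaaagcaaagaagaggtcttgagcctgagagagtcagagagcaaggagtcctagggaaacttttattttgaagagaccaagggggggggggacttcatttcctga
Ngfr: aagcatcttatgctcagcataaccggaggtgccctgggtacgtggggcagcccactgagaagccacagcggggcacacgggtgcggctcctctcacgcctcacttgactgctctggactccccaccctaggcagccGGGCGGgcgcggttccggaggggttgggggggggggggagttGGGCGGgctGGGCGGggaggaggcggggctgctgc
The *Ngfr* stretch of 213 bases holds 3 GC boxes and 14 CG dinucleotides, that of *Axl* (250 bases) holds 1 and 5, and that of *Pdgfra* (250 bases) holds 0 and 4. Among all 32851 promoters of the table, 32.7% contain a GC box within 250 bases before the start, and the median number of CG dinucleotides is 6. Promoters were listed for 8 of the 10 genes, and 5 of the 8 (*Axl*, *Egfr*, *Met*, *Ngfr* and *Ddr1*) have a GC box before at least 1 start. A TATA box (TATAAA, both strands) was found before *Ddr2* alone, against 12.4% of all promoters. Both counts are of genes, and *Ddr1* has more than 1 start listed. The background shares are of single promoters, so counts and shares are not on the same scale.

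All 10 receptors were detected in all 12 libraries. To compare genes with each other, counts were divided by merged exon length and scaled to 1000000 per library (approximate TPM, transcripts per 1000000), and means over the 12 libraries are given with their SD. *Axl*, the receptor for Gas6 and a member of the TAM family, led at 658 TPM ± 62.2 and stood above 98.5% of the tested genes. *Ddr2*, a receptor for fibrillar collagen typical of mesenchymal cells, followed at 98.4 ± 22.2 TPM, and *Fgfr1*, the main FGF receptor of mesenchyme, at 63.7 ± 6.35. In all 12 libraries *Axl* was above *Ddr2* and *Ddr2* above *Fgfr1*.

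The middle of the order was less distinct. *Ddr1*, the collagen receptor better known from epithelium, averaged 53.5 ± 6.61 TPM, *Egfr* 50.4 ± 8.05 and *Pdgfrb*, the PDGF receptor of mural cells and fibroblasts, 46.8 ± 13.9. *Fgfr1* exceeded *Ddr1* in 4 of 6 female and 6 of 6 male libraries, and *Ddr1* exceeded *Egfr* in 3 female and 5 male libraries. *Egfr* was above *Pdgfrb* in all 6 female libraries and in 1 of 6 male libraries. The order of *Egfr* and *Pdgfrb* was thus opposite in the female and most of the male libraries, while the female libraries did not order *Fgfr1*, *Ddr1* and *Egfr*. *Met*, the receptor for hepatocyte growth factor, lay at 25.0 ± 3.20 TPM, below *Pdgfrb* and above *Fgfr2* in all 12 libraries. *Fgfr2*, whose epithelial and mesenchymal splice forms are counted together here, averaged 14.5 ± 2.54 TPM, *Ngfr* 10.4 ± 5.09 and *Pdgfra*, the PDGF receptor of fibroblast progenitors, 8.06 ± 5.95. *Fgfr2* was above *Ngfr* in 2 of 6 female and 6 of 6 male libraries, and *Ngfr* was above *Pdgfra* in 6 female libraries and 1 male library. The least abundant receptor was therefore *Pdgfra* in female MEFs and *Ngfr* in most male libraries.

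**Figure D1:**
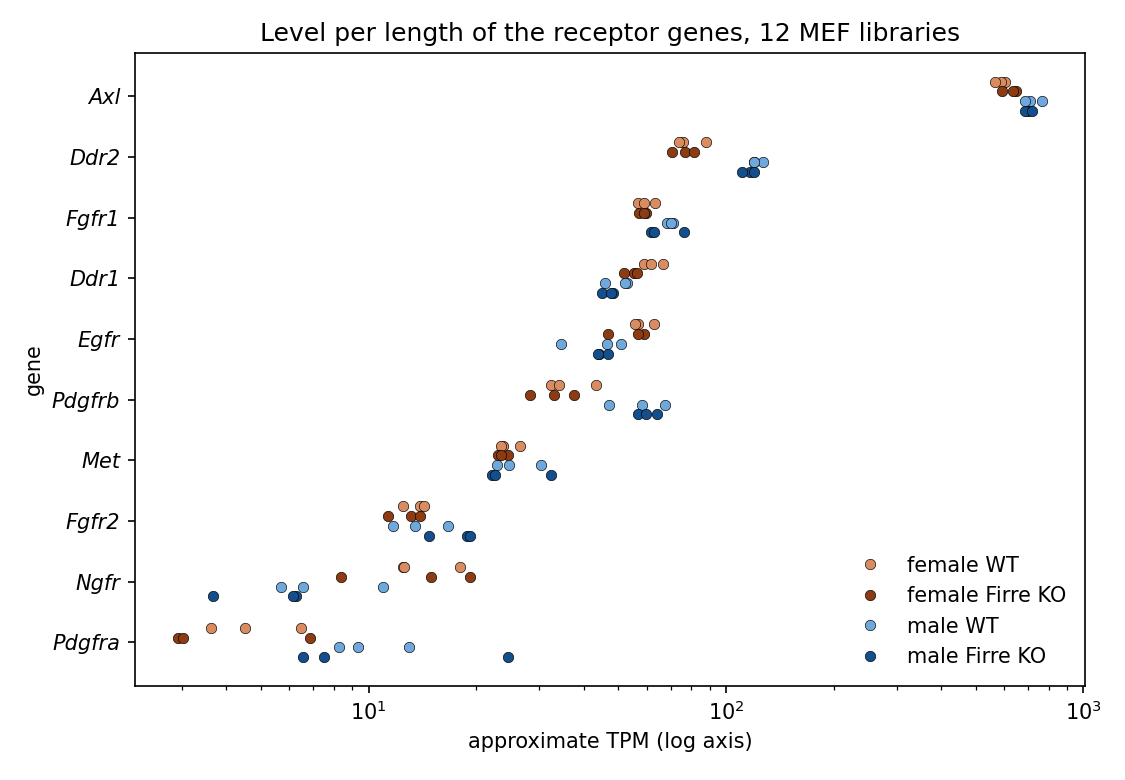
Approximate TPM (log axis) of the 10 genes, with 1 point for each of the 12 libraries, coloured by group. *Axl* lies apart at 565 to 766 TPM, *Pdgfra* spreads from 2.93 to 24.6, and the points of *Ddr1*, *Egfr* and *Pdgfrb* overlap.

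The value of *Fgfr2* depends on how reads were divided between genes. In the annotation it spans 3009069 bases on chromosome 7 (137305965 to 140315033, minus strand), since 1 of its 29 transcripts shares 314 exonic bases with *Ctbp2*, the gene of a transcriptional corepressor. Its expected count was whole (within 0.015) in 0 of 12 libraries, whereas the sum of *Fgfr2* and *Ctbp2* was whole in all 12, so that reads were divided between the 2 genes. The counts of *Pdgfra*, *Pdgfrb*, *Met* and *Axl* were whole in all 12 libraries and those of *Egfr* in 11. *Ddr1* and *Ngfr* were whole in 8, *Fgfr1* in 5 and *Ddr2* in 2.

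The spread between replicates also differed among the receptors. The pooled SD of log2 CPM within groups was 0.063 for *Axl*, larger than that of 20.0% of the tested genes, and 0.081 to 0.096 for *Fgfr1*, *Ddr1* and *Ddr2*. *Met*, *Egfr*, *Fgfr2* and *Pdgfrb* lay between 0.174 and 0.214. *Ngfr* reached 0.465, above 88.7% of the tested genes, and *Pdgfra* 0.665, above 95.4% of them. Among genes of like level (within 0.5 of its mean log2 CPM), *Pdgfra* exceeded 99.7% of 1977 genes and *Ngfr* 97.7% of 1680. On the same measure *Pdgfrb* exceeded 96.4%, *Fgfr2* 94.5%, *Egfr* 94.3% and *Met* 92.9%, while *Ddr2*, *Ddr1*, *Fgfr1* and *Axl* exceeded 72.4%, 64.9%, 63.4% and 44.9%. Leaving out both male replicate 3 libraries moved the SD of *Met* from 0.174 to 0.062, above 67.9% of the genes of like level, that of *Fgfr2* from 0.199 to 0.132 and that of *Fgfr1* from 0.081 to 0.047. *Ngfr* was then at 0.519 and *Pdgfra* at 0.467, still the largest of the 10, and *Fgfr1* rather than *Axl* (0.061) had the smallest. The lowest counts in a library were 315 for *Pdgfra* and 290 for *Ngfr*.

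The *Pdgfra* gene (ENSMUSG00000029231.9; chromosome 5, 75548316 to 75594229) was read at 10.8, 8.84 and 15.2 CPM in female wild type and at 7.13, 16.8 and 7.45 CPM in female KO. In male wild type it stood at 22.2, 19.7 and 30.4 CPM, and in male KO at 17.8, 15.6 and 56.1 CPM. The largest value, 56.1 CPM in male KO replicate 3, was 3.60 times the smallest of its group, and the highest wild type value was also that of a male replicate 3. *Met* was likewise highest in these 2 libraries, at 81.2 CPM in male WT replicate 3 and 84.6 CPM in male KO replicate 3, against 60.5 to 71.7 CPM in the other 10 libraries.

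**Figure D2:**
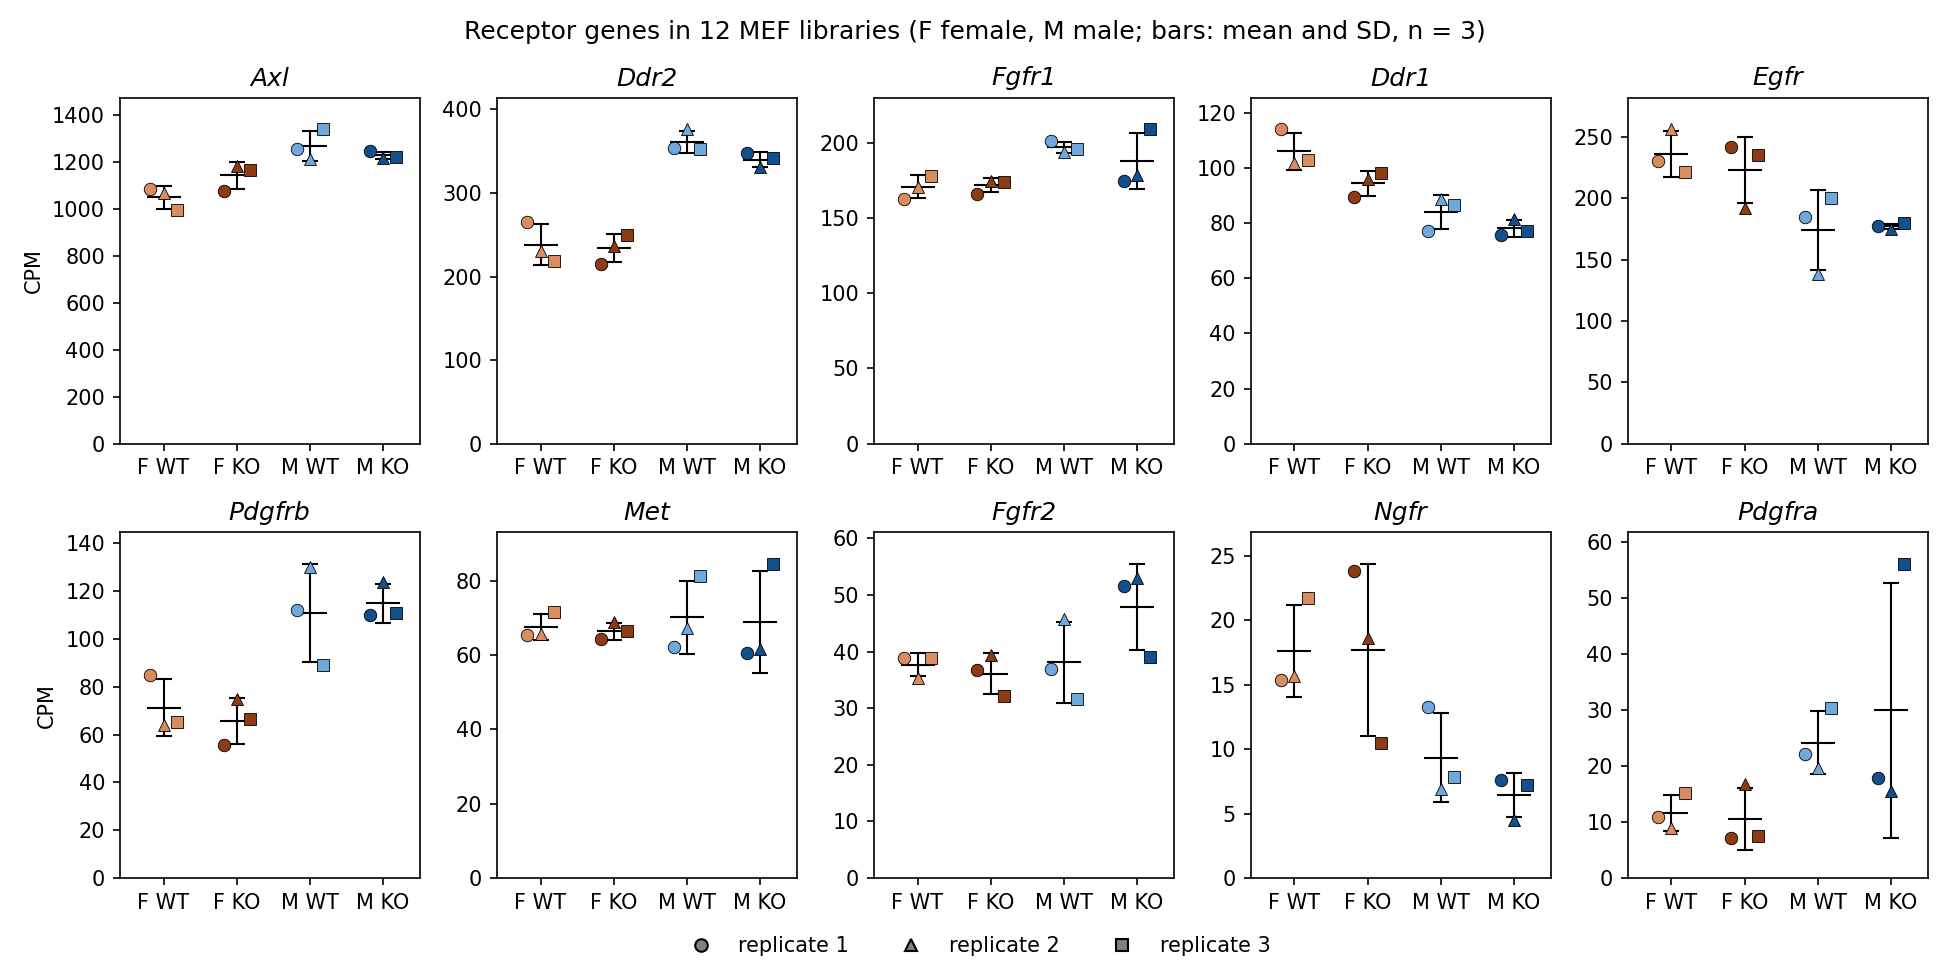
CPM of each gene (linear axes from 0) in female (F) and male (M) wild type and KO libraries, with symbols for replicates 1 to 3 and bars for the mean and SD of 3 replicates. *Ddr2*, *Axl* and *Pdgfrb* are lower in every female than in every male library and *Ddr1* is higher, while *Pdgfra* ranges from 15.6 to 56.1 CPM in male KO.

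The first comparison asks whether deletion of *Firre* altered these receptors within each sex. Genes were called at an adjusted p under 0.01 with an absolute log2 fold change over 1, the thresholds of the study, by the quasi-likelihood test of edgeR, with p-values adjusted by the Benjamini-Hochberg method over all genes tested. None of the 10 was called in female MEFs, in male MEFs or in the average over the sexes, by edgeR or by DESeq2. The background share was 0.00650% of the tested genes in each of these 3 contrasts, which is 1 gene, *Firre* itself. At an adjusted p under 0.05 without a fold limit the count was again 0 of 10 in each, and at an unadjusted p under 0.05 it was 2 in female MEFs, 1 in male MEFs and 1 in the average, where 7.55%, 2.06% and 6.24% of all tested genes passed. When the KO effects of female and male MEFs were set against each other, no member was called, where the background share was 0%, and 1 member was below an unadjusted p of 0.05, as were 3.19% of all tested genes.

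In female MEFs the log2 fold changes in KO against wild type ran from -0.17 to 0.12. *Ddr1* had 114, 102 and 103 CPM in the wild type libraries and 89.4, 96.0 and 98.1 CPM in the KO libraries. All 3 KO libraries were thus below all 3 wild type libraries, a pattern that 19.2% of the tested genes showed in 1 direction or the other in female MEFs. Its log2 fold change was -0.17 ± 0.06 (SE), with an adjusted p of 0.594 in edgeR. In male MEFs *Ddr1* stood at 77.1, 88.6 and 86.7 CPM in wild type and at 75.7, 81.4 and 77.1 CPM in KO, groups that overlap, with a log2 fold change of -0.11 ± 0.06. Over both sexes the difference was -0.14 ± 0.05, with a 95% confidence interval from -0.24 to -0.04 and an adjusted p of 0.744.

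*Axl* (chromosome 7, 26542292 to 26573724) was read at 1084, 1070 and 994 CPM in female wild type and at 1075, 1184 and 1168 CPM in female KO, and the groups overlap. Its log2 fold change of 0.12 ± 0.05 had an adjusted p of 0.625. In male MEFs it was -0.05 ± 0.05, from 1257, 1213 and 1339 CPM in wild type to 1246, 1216 and 1223 CPM in KO. Between female and male MEFs this effect differed by 0.17 ± 0.07, with an interval from 0.01 to 0.33 and an adjusted p of 1.00 in edgeR. The unadjusted 95% intervals for the most abundant receptor reached at most 1.18-fold in female and ran from 0.895-fold to 1.05-fold in male MEFs.

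In male MEFs the log2 fold changes ran from -0.55 for *Ngfr* to 0.33 for *Fgfr2*. *Fgfr2* had 36.9, 45.8 and 31.7 CPM in male wild type and 51.6, 53.0 and 39.1 CPM in male KO, and 1 KO library lay inside the range of the wild type. Its adjusted p was 1.00, its log2 fold change in female MEFs was -0.06 ± 0.14, and the difference between the sexes, -0.39 ± 0.20, had an adjusted p of 1.00 in edgeR. *Ctbp2*, with which it shares reads, had 67.0 ± 3.87 CPM in male wild type and 67.8 ± 3.33 CPM in male KO (SD, n = 3). *Ddr2* was lower in all 3 male KO libraries (348, 331 and 342 CPM) than in all male wild type libraries (354, 376 and 352 CPM). Such a separation was found for 5.30% of the tested genes in male MEFs, and the log2 fold change of *Ddr2* was only -0.08 ± 0.07.

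The direction of *Pdgfra* in male MEFs rested on 1 library. Its log2 fold change was 0.31 ± 0.47 with all 12 libraries, -0.53 without male KO replicate 3 and -0.33 without both male replicate 3 libraries. *Ngfr* showed -0.55 ± 0.33 in male MEFs, -0.75 without those 2 libraries, and -0.73 to -0.20 without single libraries, the last of these without male WT replicate 1. *Fgfr1* showed -0.07 ± 0.06, and -0.17 without both male replicate 3 libraries. In female MEFs *Ngfr* was at 0.00 ± 0.32. The count of calls upon KO was still 0 of 10 in each contrast when those libraries were left out, with 2 members under an unadjusted p of 0.05 in each. The share of all tested genes under that p was then 14.4% in female MEFs, 4.29% in male MEFs, 8.97% in the average and 7.76% in the difference of the KO effects.

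**Figure D3:**
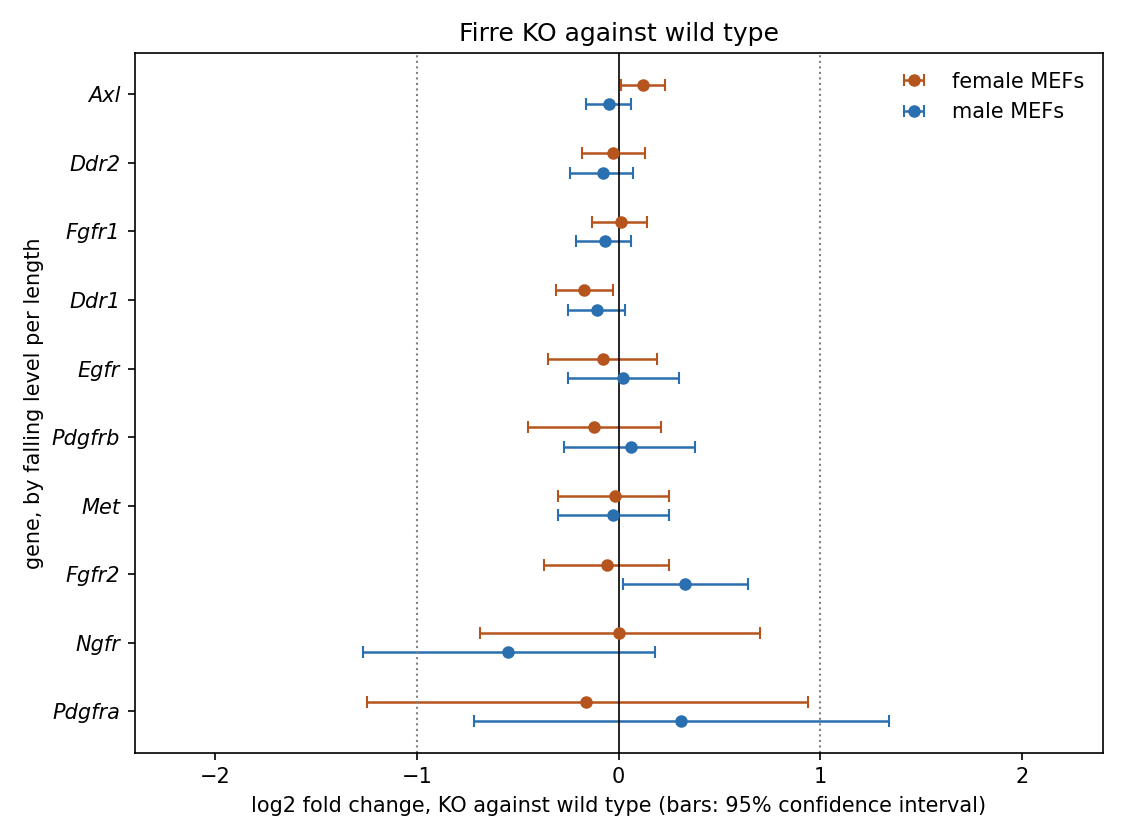
Log2 fold change in KO against wild type for each gene in female and male MEFs, with 95% confidence intervals from the edgeR fit, and dotted lines at the fold limit of 1. The estimates lie between -0.55 and 0.33, and only the intervals of *Ngfr* and *Pdgfra* reach past a line.

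The intervals show which changes the libraries left possible. For *Axl*, *Fgfr1*, *Ddr1* and *Ddr2* the 95% intervals in both sexes stayed within -0.31 and 0.23 on the log2 scale. For *Met*, *Egfr*, *Pdgfrb* and *Fgfr2* they stayed within -0.45 and 0.64. For *Ngfr* they ran from -0.69 to 0.70 in female and from -1.27 to 0.18 in male MEFs, and for *Pdgfra* from -1.25 to 0.94 and from -0.72 to 1.34. The intervals therefore take in a 2-fold fall of *Ngfr* in male, a 2-fold fall of *Pdgfra* in female and a 2-fold rise of *Pdgfra* in male MEFs.

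The levels were then compared between the female and the male cultures, first in wild type. Sex, line and sequencing depth cannot be told apart in this comparison. Of the 10 receptors 0 were called at the thresholds of the study, against a background of 4.54% of the tested genes, and DESeq2 also called 0. At an adjusted p under 0.05 without a fold limit 7 of 10 differed, 3 higher and 4 lower in female MEFs, where 38.7% of the tested genes passed, 18.9% higher and 19.8% lower in female. The libraries of the groups did not overlap for 3 receptors that were higher and 5 that were lower in female wild type, a separation shown by 51.9% of the tested genes.

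In the comparison of the 6 KO libraries, 1 of 10 was called (*Ngfr*), against a background of 3.89%. At an adjusted p under 0.05 6 of 10 passed, 2 higher and 4 lower in female, against 38.7% of the tested genes, with 18.9% higher and 19.7% lower. Non-overlapping libraries were found for 3 higher and 4 lower receptors, against 50.2% of the tested genes. Without the male replicate 3 libraries 0 receptors were called in wild type and 0 in KO, where the backgrounds were 5.06% and 4.13%. At an adjusted p under 0.05, 6 of 10 then passed in wild type and 5 in KO, against 45.1% and 44.6% of the genes tested.

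The collagen receptors went opposite ways. *Ddr2* (chromosome 1, 171902439 to 172040632) was at 265, 231 and 218 CPM in female wild type and at 215, 236 and 250 CPM in female KO, and every female library was below every male library. The log2 fold change in female against male was -0.60 ± 0.07 in wild type (adjusted p = 0.000146) and -0.54 ± 0.07 in KO (adjusted p = 0.000263), and it was -0.62 and -0.54 without the male replicate 3 libraries. *Ddr1* (chromosome 17, 35818512 to 35841566) was higher in female MEFs in both genotypes, by 0.33 ± 0.06 (adjusted p = 0.00217) and 0.28 ± 0.06 (adjusted p = 0.00629), and no female library overlapped a male library of the same genotype. The genes of fibrillar collagen, the ligand of both receptors, stood at 2841 CPM for *Col1a1* and 1648 CPM for *Col1a2* in female wild type and at 3333 and 2536 CPM in male wild type. *Col1a2* was lower in female by 0.62 on the log2 scale (-0.62 ± 0.19, adjusted p = 0.0245), and *Col1a1* had -0.23 ± 0.17 with an adjusted p of 0.299. *Col3a1*, another fibrillar collagen gene, stood at 566 and 556 CPM in these groups, at 0.03 ± 0.17 with an adjusted p of 0.914.

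*Pdgfrb* (chromosome 18, 61204804 to 61244715) was read at 84.9, 63.8 and 65.2 CPM in female wild type against 112, 130 and 89.3 CPM in male wild type. In KO the values were 55.8, 74.8 and 66.3 CPM in female and 110, 124 and 111 CPM in male, and no female value reached a male value in either genotype. It was lower in female by -0.64 ± 0.15 in wild type (adjusted p = 0.00705) and by -0.81 ± 0.15 in KO (adjusted p = 0.00192). Of 8 pericyte and smooth muscle markers 3 were also lower in female at an adjusted p under 0.05 in each genotype, where 19.8% of all tested genes were lower in wild type and 19.7% in KO. Without the male replicate 3 libraries the counts were 2 and 3. With all libraries kept, the list summed to 10936 to 13761 CPM in female wild type and 11084 to 12210 CPM in male wild type. The part of such cells in the difference was not tested. In bulk samples fewer cells of a type and less RNA per cell cannot be told apart.

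*Pdgfra* had log2 fold changes of -1.04 ± 0.49 in wild type (adjusted p = 0.111) and -1.51 ± 0.49 in KO (adjusted p = 0.031). All 3 female wild type libraries were below all male ones, while in KO female replicate 2 (16.8 CPM) lay above male replicate 2 (15.6 CPM). Without the male replicate 3 libraries the values were -0.84 (adjusted p = 0.0632) and -0.67 (adjusted p = 0.131), neither under 0.05. Over all alternatives the adjusted p ran from 0.0124 to 0.269 in wild type and from 0.0163 to 0.155 in KO. The adjusted p also exceeded 0.05 in KO without female KO replicate 1 (-1.30) or female KO replicate 3 (-1.31).

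*Egfr*, the receptor of epidermal growth factor, TGF-alpha and amphiregulin, had 230, 256 and 221 CPM in female wild type and 185, 138 and 200 CPM in male wild type. The difference of 0.44 ± 0.12 had an adjusted p of 0.0169, and without female WT replicate 2 it was 0.37 with an adjusted p of 0.0678, in a range from 0.00727 to 0.0678 over the alternatives. In KO *Egfr* was 0.33 ± 0.12 higher in female with an adjusted p of 0.0536, and the libraries again did not overlap. Over the alternatives this adjusted p ran from 0.0119 to 0.17. *Axl* was lower in female wild type by -0.27 ± 0.05 (adjusted p = 0.00184) and had -0.10 ± 0.05 in KO (adjusted p = 0.129). *Fgfr1* had -0.21 ± 0.06 in wild type (adjusted p = 0.0227) and -0.13 ± 0.06 in KO (adjusted p = 0.128), and in wild type its adjusted p exceeded 0.05 without male WT replicate 1, female WT replicate 1 or female WT replicate 2 (-0.18 to -0.21).

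*Met* and *Fgfr2* did not pass an adjusted p of 0.05 in wild type, at -0.06 ± 0.13 and -0.02 ± 0.14. *Met* had 65.4, 65.6 and 71.7 CPM in female wild type and 62.2, 67.3 and 81.2 CPM in male wild type, and its 95% interval runs from 0.795-fold to 1.17-fold. In KO *Fgfr2* was lower in female (36.8, 39.4 and 32.2 CPM) than in male MEFs (51.6, 53.0 and 39.1 CPM) by -0.41 ± 0.14 with an adjusted p of 0.0396. The adjusted p exceeded 0.05 without any 1 of 8 libraries, with values from -0.33 to -0.42, and was 0.00207 without both male replicate 3 libraries (-0.53).

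**Figure D4:**
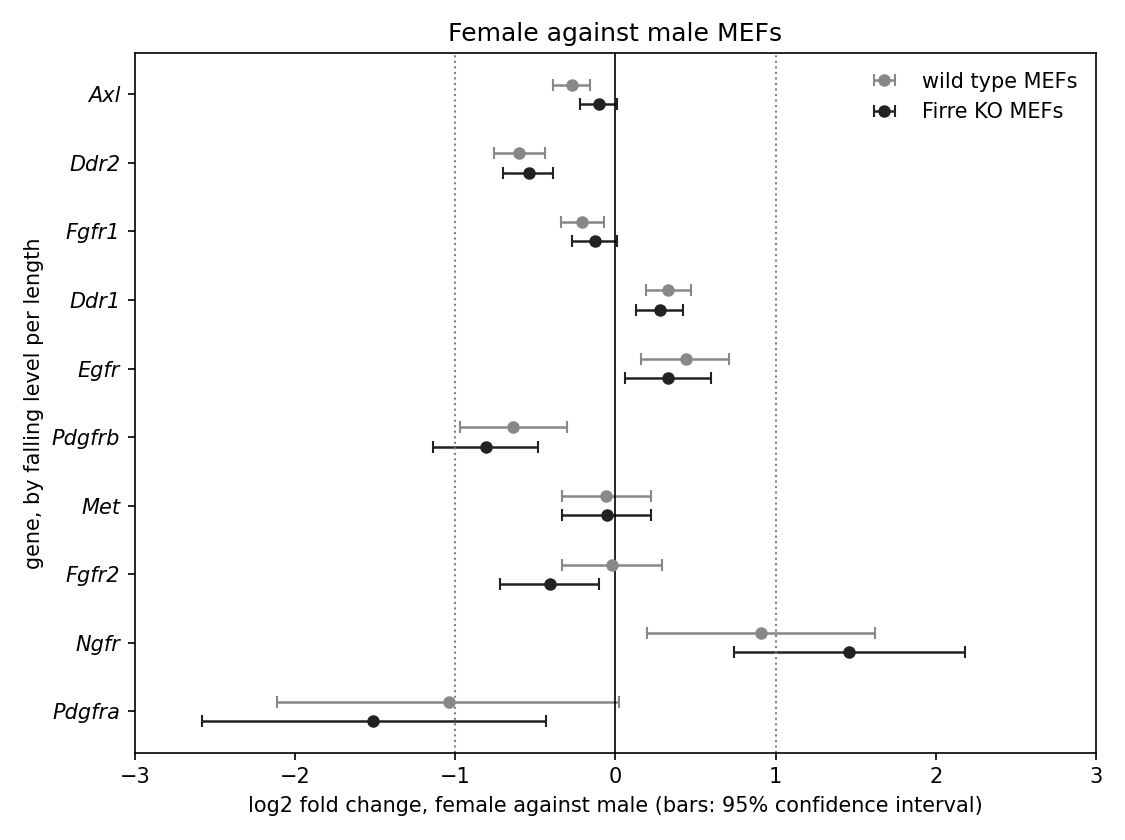
Log2 fold change in female against male MEFs for each gene in wild type and in KO, with 95% confidence intervals from the edgeR fit, and dotted lines at the fold limit of 1. *Ddr1*, *Egfr* and *Ngfr* lie above 0 and the other 7 genes below 0 in both genotypes, and the intervals of *Ddr2* and *Pdgfrb* lie wholly below 0 in both.

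*Ngfr* (ENSMUSG00000000120.6; chromosome 11, 95430132 to 95449049, minus strand) had the widest span of group means on the log2 CPM scale (1.47, against 1.37 for *Pdgfra*). It was read at 15.4, 15.7 and 21.7 CPM in female wild type and at 23.8, 18.6 and 10.5 CPM in female KO. In male wild type it had 13.3, 6.91 and 7.86 CPM, and in male KO 7.62, 4.47 and 7.18 CPM. Female and male libraries did not overlap within a genotype, although female KO replicate 3 lay below male WT replicate 1. The female level was 1.88 times the male level in wild type (log2 fold change 0.91 ± 0.32, adjusted p = 0.0433) and 2.75 times in KO (1.46 ± 0.33, adjusted p = 0.00537). The difference between these 2 contrasts is the difference in the KO effect given above, 0.55 ± 0.46, which had an adjusted p of 1.00.

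The call of *Ngfr* in KO was not stable to single libraries. It was lost without male KO replicate 1, 2 or 3 and without female KO replicate 1 or 2, while the log2 fold change stayed between 1.18 and 1.73 in all 12 of these fits. Without both male replicate 3 libraries it was 1.55 with an adjusted p of 0.0107, and over all alternatives the adjusted p ran from 0.000997 to 0.0242. In wild type the adjusted p ran from 0.0183 to 0.149, and it exceeded 0.05 without any 1 of 7 libraries (0.73 to 1.00) and without both male replicate 3 libraries (0.80).

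The genes whose centred log2 CPM over the 12 libraries lay closest to that of *Ngfr* were *Parp14* (root mean square difference 0.200), *Cdh19* (0.211), *Cadm4* (0.213), *Mmp15* (0.244) and *Gm16701* (0.253), where the median over all tested genes was 0.753. *Cdh19* encodes a cadherin of Schwann cell precursors and *Cadm4* an adhesion molecule of Schwann cells. *Cdh19* had 5.56, 5.06 and 6.40 CPM in female wild type, 6.16, 5.06 and 2.15 in female KO, 3.53, 1.69 and 2.53 in male wild type, and 1.93, 1.31 and 2.27 in male KO. Like *Ngfr*, it was lowest in replicate 3 among the female KO libraries and highest in replicate 1 among the male wild type libraries. A shared pattern of this kind follows from picking genes by their closeness to *Ngfr*, and is no separate result. Points for 1 gene share library, depth and culture, and the likeness is a description.

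Most of the 10 listed Schwann and neural crest markers were higher in female MEFs, as *Ngfr* was. *S100b* went the other way, at -0.50 ± 0.55 in wild type and -0.58 ± 0.54 in KO (log2 fold change in female against male). The list summed to 97.1 to 116 CPM in female wild type, 79.9 to 100 in female KO, 36.1 to 37.7 in male wild type and 27.3 to 42.7 in male KO, and 9 of the 10 passed the filter. At an adjusted p under 0.05, 8 of 9 were higher in female wild type and 7 of 9 in female KO, and 5 were called in each, with a median log2 fold change of 1.57 and 1.75. Of all tested genes 18.9% were higher at that threshold in each genotype, and 4.54% and 3.89% were called in either direction. Leaving out both male replicate 3 libraries gave 1 call in wild type and 5 in KO, where 5.06% and 4.13% of all tested genes were called. *Sox10*, the transcription factor that defines this lineage, was higher in female by 1.85 ± 0.42 in wild type (adjusted p = 0.00544), from 6.72 against 1.87 CPM, and by 1.86 without the male replicate 3 libraries (adjusted p = 0.0143). *Foxd3* and *Erbb3* ranked 8 and 27 among 15386 genes in likeness to *Ngfr*, *Sox10* ranked 188 and *S100b* 14220. The part of such cells in the level of *Ngfr* was not tested.

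**Figure D5:**
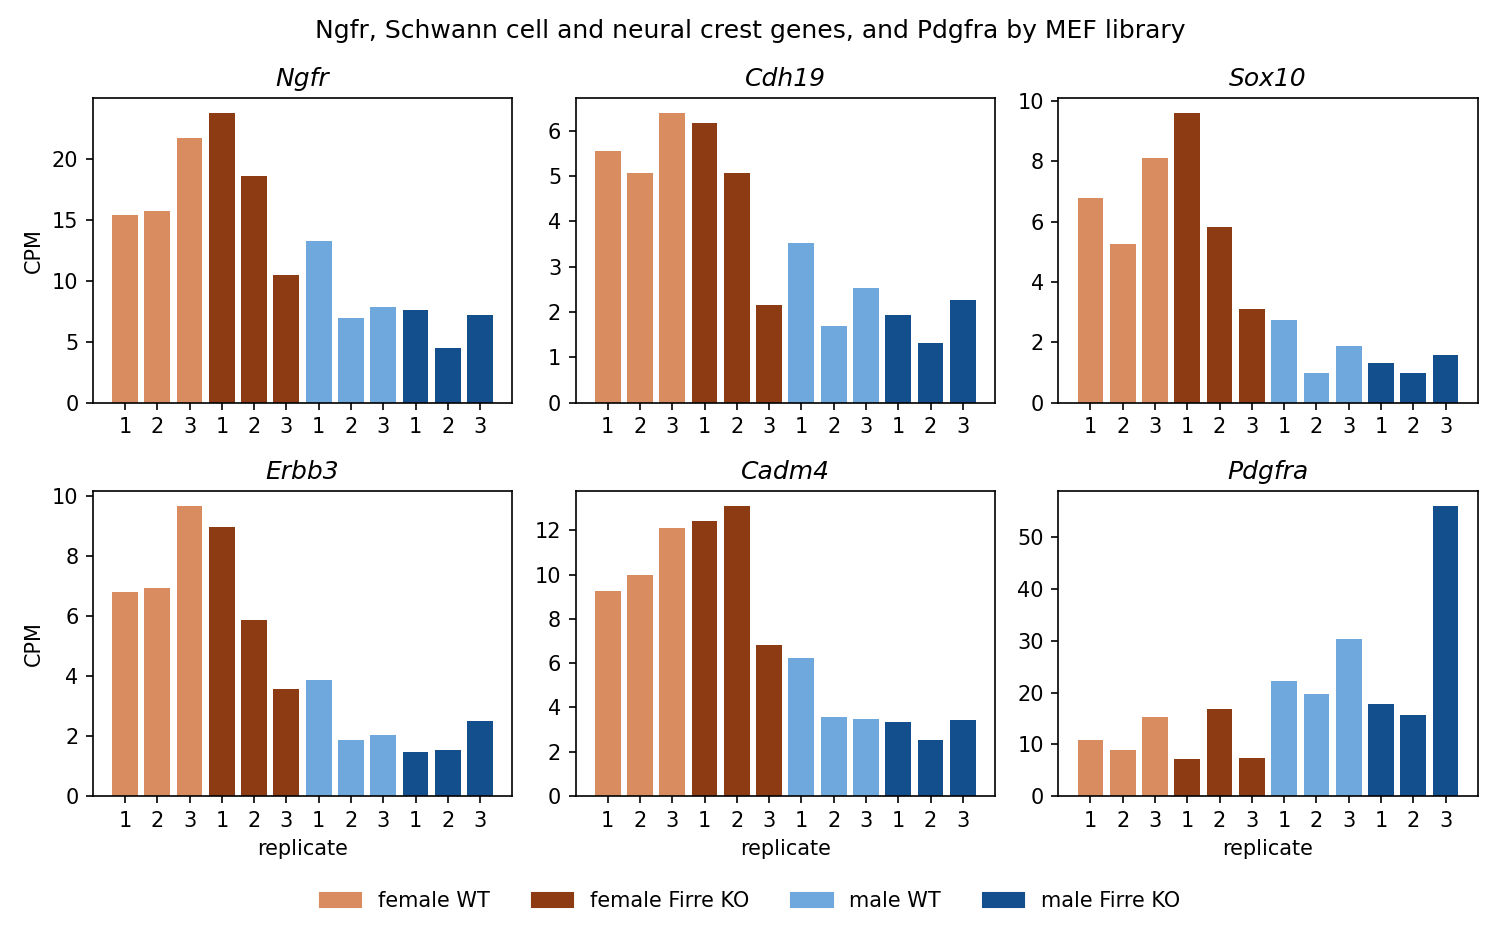
CPM (linear axes from 0) of *Ngfr*, 4 genes of Schwann cells and neural crest and *Pdgfra* in each of the 12 libraries, ordered by group and replicate. *Ngfr*, *Cdh19*, *Sox10*, *Erbb3* and *Cadm4* are higher in most female libraries and low in female KO replicate 3, while *Pdgfra* is highest in male KO replicate 3. *Cdh19* and *Cadm4* are among the genes picked for their closeness to *Ngfr*.

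Markers of other cells a MEF culture could hold were counted as higher in female at an adjusted p under 0.05, which 18.9% of all tested genes were in wild type and 18.9% in KO. All 10 macrophage markers passed in both genotypes, summing to 52.9 to 95.7 CPM in female wild type and 9.33 to 15.2 CPM in male wild type. Of 8 tested epithelial markers 8 passed in wild type (77.3 to 137 CPM in sum, against 41.8 to 54.5) and 3 in KO, as did 4 and 1 of 6 endothelial markers (25.8 to 37.5 CPM in sum, against 17.4 to 22.3 in wild type) and 4 and 5 of 8 skeletal muscle markers. The muscle list summed to 99.1 to 154 CPM in female and 105 to 147 CPM in male wild type. Of 10 fibroblast markers 1 was higher and 3 lower in female wild type at the same threshold, and 2 and 3 in KO. Among all tested genes 19.8% were lower in wild type and 19.7% in KO. The fibroblast counts became 3 and 3 in each genotype without the male replicate 3 libraries. Without the male replicate 3 libraries 9 macrophage markers were called in wild type and 7 in KO, where 5.06% and 4.13% of all tested genes were called. None of these lists had a gene past the thresholds upon KO. Their part in the differences of the receptors, among them *Ddr1* and *Egfr*, which epithelium also expresses, was not tested.

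Ligands were examined from a list of 28 genes, all of them tested. Upon KO 0 of 28 were called or passed an adjusted p of 0.05 in either sex. Between female and male wild type 2 were called higher and 2 lower, where 4.54% of all tested genes were called in either direction. At an adjusted p under 0.05, 6 were higher and 9 lower (18.9% and 19.8% of all tested genes). The median log2 fold change was -0.11 over the list against -0.01 over all tested genes. *Gas6*, the ligand of *Axl*, was lower in female (57.3, 59.3 and 58.7 CPM) than in male wild type (112, 119 and 164 CPM), at -1.17 ± 0.14 (adjusted p = 0.000169), and -1.12 in KO (adjusted p = 0.000227). Its wild type value was -0.98 without the male replicate 3 libraries, under the fold limit. *Hgf*, the ligand of *Met*, was lower by -2.00 ± 0.38 in wild type (adjusted p = 0.00192) and -1.62 in KO (adjusted p = 0.00593, or 0.0188 without the male replicate 3 libraries), in wild type from 1.80, 0.95 and 1.68 CPM against 6.02, 5.26 and 6.52 CPM.

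*Pdgfb*, which binds both PDGF receptors, was higher in female wild type by 1.31 ± 0.25 (3.96 against 1.60 CPM, adjusted p = 0.00221) and in female KO by 1.12 ± 0.25 (adjusted p = 0.00533, or 0.013 without the male replicate 3 libraries). *Ntf3*, a neurotrophin that also binds *Ngfr*, was higher in female wild type by 1.35 ± 0.32 (7.68 against 3.02 CPM, adjusted p = 0.00687), and in KO it had 0.82 ± 0.32 with an adjusted p of 0.0632.

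Of 38 other receptor tyrosine kinases 34 were tested, and 0 were called or passed an adjusted p of 0.05 upon KO in either sex. Female wild type had 4 of 34 called higher and 1 lower, where 4.54% of all tested genes were called in either direction. At an adjusted p under 0.05, 8 were higher and 3 lower, where 18.9% and 19.8% of all tested genes passed. *Ephb1*, an ephrin receptor, showed 3.39 ± 0.59 at very low levels (0.257 against 0.0226 CPM), *Csf1r*, the receptor of macrophages, 2.44 ± 0.43 (14.7 against 2.71 CPM) and *Epha7* 1.64 ± 0.10 (61.9 against 19.9 CPM), while *Ephb2* was lower at -1.07 ± 0.17 (17.7 against 37.1 CPM). *Erbb3*, which is also in the Schwann list, was the remaining called gene, at 1.59 ± 0.36 with an adjusted p of 0.00565, and at 1.45 with an adjusted p of 0.0136, no longer called, without the male replicate 3 libraries.

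Among 16 tested co-receptors and partners of *Ngfr*, 26 core signalling genes and 22 feedback inhibitors and targets, 0 were called upon KO and 0 between female and male wild type. In the latter comparison 4.54% of all tested genes were called. In wild type 3 co-receptors and partners were higher and 6 lower in female at an adjusted p under 0.05. Of the signalling genes 3 were higher and 9 lower, and of the feedback genes 3 and 8, with medians of -0.06 and -0.17. Among all tested genes 18.9% were higher and 19.8% lower at that threshold. Without the male replicate 3 libraries 1 feedback gene was called lower in wild type, where 5.06% of all tested genes were called in either direction.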

How the data were processed

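Total RNA of MEF cultures was sequenced from Illumina TruSeq libraries, 3 in each of 4 groups. The authors mapped the reads with Bowtie2 and quantified transcripts with RSEM 1.2.29, and the submitters' processing notes name the mm9 build. The deposited values are expected counts per gene, not normalized, and all gene IDs were found in the NCBIM37 (mm9) annotation. RSEM divides a read that matches several genes between them, which can move *Fgfr2*. The authors tested genes with DESeq2 1.4.5 in R 3.1.0.

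Expected counts were rounded to whole numbers, filtered with filterByExpr, scaled by TMM and fitted across 15387 genes and 12 libraries with edgeR 4.0.16 (quasi-likelihood test, R 4.3.3, limma 3.58.1), with 1 coefficient per group and 8 residual degrees of freedom. P-values were adjusted by Benjamini-Hochberg over all genes tested, and a call required both a log2 fold change beyond 1 in size and an adjusted p below 0.01. On simulated counts for the female KO comparison (15387 genes), 172 of 200 genes changed 4-fold were called and 0 others. Library totals of 42986516 to 65454660 left counts of at least 290 for each member, so that replicates, not counting, limit precision. Promoters came from RefSeq (GRCm38.p6) and positions from exact matches on NCBIM37.

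By rule, genes named are the 10 members, the 5 genes most like *Ngfr* (the widest span of group means of log2 CPM), in each pathway list up to 3 with the largest rise and up to 3 with the largest fall called between female and male wild type, and ligands of a member that passed. *Ctbp2*, *Erbb3* and the Schwann and neural crest markers were named after their values were seen. The members and lists were chosen with earlier results of these data known. Same-numbered replicates correlated at -0.16, -0.12 and -0.15 in female and 0.10, 0.22 and 0.33 in male MEFs, so numbers were not used as pairs. Alternatives were DESeq2 1.42.0, RLE factors, library size alone, no filter, at least 10 counts in every library, a threshold of 0.05 on the adjusted p with no fold limit, a fit of only the 6 libraries compared, the replicate block, and each library left out. Leaving out both male replicate 3 libraries was added after seeing the data. Some genes of the lists are not reported here by name.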

Additional observations from a re-analysis of the deposited data

How the results depend on the processing

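The count of receptors called upon KO was 0 under every alternative run. Between female and male wild type it was 0, and 7 at an adjusted p under 0.05 with no fold limit. Between female and male KO it was 1, 6 at an adjusted p under 0.05, 0 with only the 6 libraries compared, 0 without both male replicate 3 libraries, and 0 to 1 without single libraries. Some log2 fold changes turned sign. In female KO against wild type, *Fgfr1* was -0.01 by library size alone and -0.00 with at least 10 counts in every library, and *Ngfr* was -0.01, -0.00, -0.00 with only 6 libraries, -0.00 without both male replicate 3 libraries and -0.04 with the replicate block. In male KO against wild type without both male replicate 3 libraries, *Pdgfra* was -0.33, from 0.31, and *Pdgfrb* -0.06. Between female and male wild type *Fgfr2* was 0.00 by library size alone and 0.00 with the replicate block, and without both male replicate 3 libraries *Met* was 0.06 in wild type and 0.12 in KO. The cause was not tested.

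Without single libraries, the log2 fold changes in female KO against wild type ran from -0.68 to 0.09 for *Pdgfra*, -0.22 to 0.03 for *Pdgfrb*, -0.03 to 0.04 for *Fgfr1*, -0.13 to 0.02 for *Fgfr2*, -0.14 to 0.02 for *Egfr*, -0.05 to 0.02 for *Met*, -0.09 to 0.06 for *Ddr2* and -0.27 to 0.27 for *Ngfr*. In male KO against wild type they ran from -0.53 to 0.62 for *Pdgfra*, -0.08 to 0.19 for *Pdgfrb*, -0.12 to 0.14 for *Egfr* and -0.20 to 0.09 for *Met*. Between female and male wild type they ran from -0.14 to 0.13 for *Fgfr2* and -0.14 to 0.06 for *Met*, and in KO from -0.14 to 0.12 for *Met*. Same-numbered replicates correlated below 0 in all 3 female pairs and at 0.10, 0.22 and 0.33 in the male pairs, so not every pair exceeded 0.1 and the replicate block stayed an alternative. In male MEFs replicates 2 and 3 correlated best with their own number, and replicate 1 of wild type with replicate 2 of KO.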
